A study of Brachypodium distachyon with 20 samples.

Results

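The step from the leaf middle (LEM) to the leaf late (LEL) stage of the Brachypodium distachyon embryo was described across genes. Its members were the genes above 0 log2 CPM (1 CPM, a count relative to library size) in at least 2 of the 20 libraries of the series, which were 22902 of the 23749 genes in the table, and 847 genes were left out. For each gene the mean of the LEL libraries (LEL replicates 1 and 2) was set against the mean of the LEM libraries (LEM replicates 1 and 2). All plants were of ecotype Bd21, the reference line of the species, with no genetic change or treatment, and flowers were emasculated and hand-pollinated so that embryos developed at the same pace. The other libraries, 2 per group, came from 5 embryo stages (two-cell or quadrant, TCQ; pro-embryo, PEM; transition, TRA; leaf early, LEE; mature, MAT), from early and late endosperm (EEN and LEN) and from seed coat (SEC), and LEN and SEC were taken at the time of LEL. Each library was a pool of hand-dissected embryos or tissues and its mRNA was amplified before sequencing, so a value is a mean over many embryos and over all their cells. Whether the pools of a stage had separate plants or days of dissection is not stated, and p-values cover only how far these libraries differ.

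At the leaf stages the grass embryo enlarges its scutellum, the single cotyledon that later takes up nutrients from the endosperm, and lays down leaves around the shoot meristem. The later part of embryogenesis in seed plants is known for the accumulation of storage proteins, oil and protective proteins and for a decline of cell division before the seed dries. The shoot meristem, root meristem and radial tissues are specified by a small set of transcription factors and hormone genes that are best known from Arabidopsis.

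The values are log2 CPM as the authors deposited them, so each is relative to the size of its library. The antilogs of the LEM and LEL libraries summed to 739963 to 798583, and these 4 libraries held 17502 to 18349 genes above 1 CPM. The median absolute difference between the replicates was 0.224 log2 at LEM and 0.218 at LEL, and the replicates correlated at 0.99 across genes in both groups. In the other groups this difference was 0.129 (TRA) to 0.179 (LEE), except for 0.276 in EEN.

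From LEM to LEL 8495 of the 22902 tested genes changed, with an adjusted p below 0.05 by limma, which is 37.1% of them. That fit takes the spread of a gene from all 10 groups together. With only the LEM and LEL libraries, 5887 genes changed. In the fit of all groups the change was balanced in direction, with 4203 genes higher (18.4%) and 4292 lower (18.7%) at LEL. It was not balanced in size. At least 2 log2 higher were 694 genes (3.03%), against 155 genes (0.677%) that were at least 2 log2 lower. At least 3 log2 higher were 276 genes (1.21%), against 24 (0.105%) lower. The median change of the called genes was 0.96 log2 for those that rose and -0.77 for those that fell. Over all tested genes the median absolute change was 0.395 log2, about 2 standard errors of a typical gene (median SE 0.21). The excess of large rises remained with the CPM raised by 1 before the logarithm (325 higher and 55 lower by at least 2 log2) and among genes that reached 5 log2 CPM at LEM or LEL (154 and 34).

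**Figure D1:**
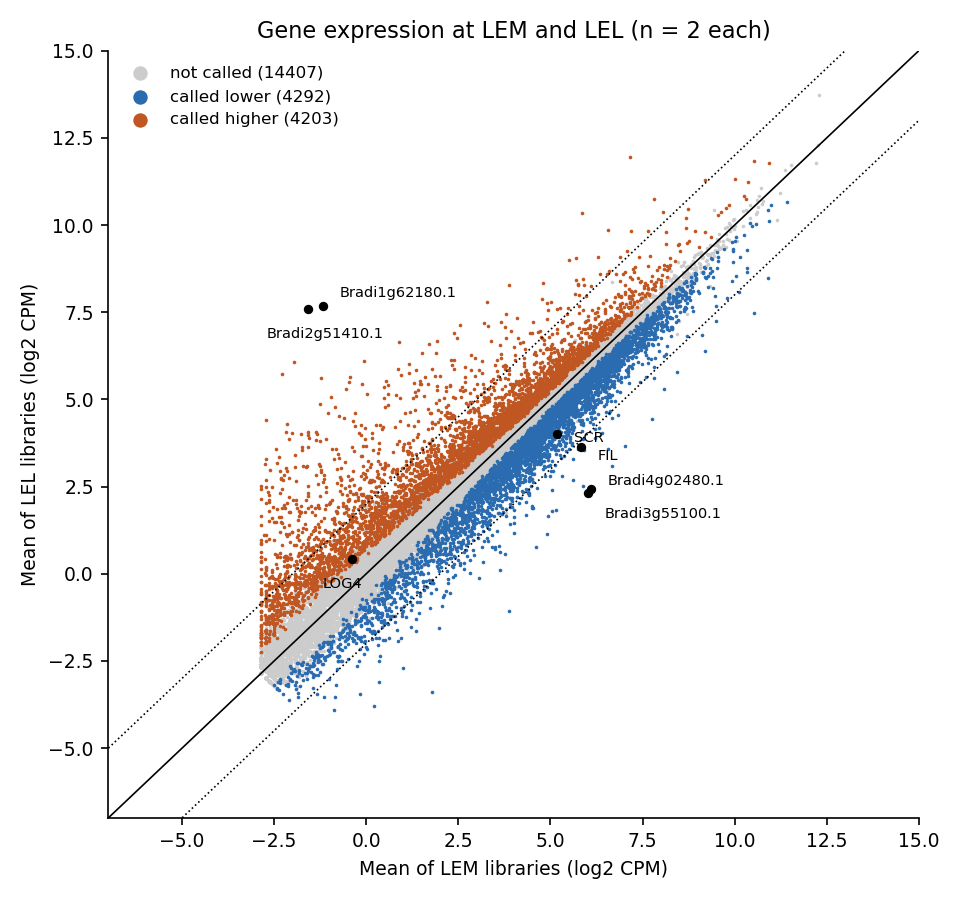
Mean expression of each tested gene in the LEM libraries (x axis, log2 CPM) and in the LEL libraries (y axis, log2 CPM), with genes called higher in orange, called lower in blue and not called in grey. The solid line is equality and the dotted lines mark a difference of 2 log2, beyond which 694 called genes lie above and 155 below. Black points are SCR, FIL, LOG4 and the 4 genes with the largest changes among well expressed genes.

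The genes with the largest changes among those that reached 5 log2 CPM went from below 1 CPM to high expression, or fell from a high level to a low one. The files do not pair these identifiers with names. Bradi2g51410.1 was at -2.07 and -1.09 log2 CPM in the LEM libraries and at 7.58 and 7.60 in the LEL libraries, a rise of 9.17 log2 (SE 0.48, adjusted p = 3.43e-09 by limma). Bradi1g62180.1 was at -1.08 and -1.28 at LEM and at 8.02 and 7.36 at LEL, a rise of 8.87 log2 (SE 0.50, adjusted p = 6.87e-09 by limma). From LEE to LEM Bradi1g62180.1 had already risen by 1.94 log2 (adjusted p = 0.0045 by limma). The change of Bradi2g51410.1 there was 0.63 (adjusted p = 0.287 by limma). Both genes stayed high at MAT, with means of 10.36 ± 0.09 and 8.74 ± 0.09 log2 CPM (SD, n = 2), and both were also high in the late endosperm (7.53 ± 0.17 and 9.08 ± 0.01). In the other direction, Bradi3g55100.1 was at 6.26 and 5.80 at LEM and at 2.51 and 2.14 at LEL, a change of -3.71 log2 (SE 0.30, adjusted p = 2.36e-07 by limma). Bradi4g02480.1 was at 6.33 and 5.87 at LEM and at 2.78 and 2.06 at LEL, a change of -3.68 log2 (SE 0.27, adjusted p = 7.99e-08 by limma). These falls continued to -0.08 ± 0.08 and -1.36 ± 0.05 log2 CPM (SD, n = 2) at MAT, and neither gene was above 0 log2 CPM on average in EEN, LEN or SEC. These 4 genes were chosen for a large change and for LEM and LEL libraries that do not overlap, so that separation is no result of its own. Among these 4 genes the rises were more than 2 times as large on the log2 scale as the falls. Over all tested genes the largest rise was 9.17 log2 and the largest fall -5.18.

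Rises and falls were spread differently over the range of expression. Genes were sorted by their mean over the 8 other groups, which takes no LEM or LEL library. The filter for tested genes does take them. A gene low in the other groups could thus be tested because of its LEM or LEL libraries alone. The part of this in the shares of the lowest class was not tested. Among the 4569 genes with a mean below 0 log2 CPM, 17.9% rose and 5.17% fell. Among the 2466 genes at 6 log2 CPM or more, 14.4% rose and 34.3% fell. The share of genes that fell thus increased with the level, from 5.17% through 11.6%, 21.5% and 26.9% to 34.3%, while the share that rose stayed between 14.4% and 19.6%. The large changes were distributed otherwise. From the lowest to the highest of the 5 level classes, the 694 large rises numbered 296, 237, 111, 37 and 13, and the 155 large falls numbered 28, 54, 50, 16 and 7, so both were fewest among the most highly expressed genes.

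Low values have a limit here. Many genes have a lowest value that is identical in several libraries, called here the floor of the gene, and a gene at its floor at LEM could not be seen to fall. Both LEM libraries were at the floor for 1028 genes and both LEL libraries for 890. Of the 694 large rises, 40 began at the floor in both LEM libraries. The others were above it in at least 1 LEM library, but often by little. The median of the 694 genes at LEM was -0.48 log2 CPM (lower quartile -1.88), which is below 1 CPM. Of the 155 large falls, 4 ended at the floor in both LEL libraries.

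At a threshold of 1 CPM, 667 genes were below it in both LEM libraries and above it in both LEL libraries, and 247 genes went the other way. Most genes that crossed upward were still low at LEL, with a median of 0.82 log2 CPM, and 9 of them reached 5 log2 CPM. Of these 667 genes, 483 were also above 1 CPM in both MAT libraries (72.4%), 344 in both LEN libraries (51.6%), 275 in both SEC libraries (41.2%), 242 in both TCQ libraries (36.3%) and 111 in both LEE libraries (16.6%). Of all tested genes 74.1% to 77.6% were above 1 CPM in both libraries of each of these groups. Of the 247 that crossed downward, 185 had been above 1 CPM in both LEE libraries (74.9%, against 76.9% of all tested genes) and 19 were so in both MAT libraries (7.69%, against 74.1%).

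A set of 20 genes for which the study pairs a name with an identifier was followed through the step: markers of the shoot meristem (6), the quiescent center of the root (2), vascular tissue (5), suspensor (2) and ground tissue (3), and 2 auxin transporters. The study paired genes of Arabidopsis and Brachypodium by best BLAST hit, so the tissue labels are those of the Arabidopsis genes. Whether the Brachypodium genes mark the same tissues was not tested. Of these, 8 fell and 1 rose, against 18.7% lower and 18.4% higher among all tested genes, and 11 did not pass the test. The median change of the 20 genes was -0.56 log2, against 0.00 over all genes. The LEM and LEL libraries did not overlap in 16 of the 20 genes, with LEL lower in 12 and higher in 4, and in 63% of all tested genes. In pools of whole embryos, fewer cells of a type and less RNA per cell cannot be told apart. KNAT1, STM, CUC2, PLT1, WOX5, SHR and MGP were above 1 CPM in all LEM and LEL libraries and below it on average in EEN, LEN and SEC. Other named genes above 1 CPM in all LEM and LEL libraries were also above it on average outside the embryo. These were SCR and WOL in all of EEN, LEN and SEC, WOX9 in EEN and LEN, PIN1a in LEN, and FIL, YUC3 and PIN1b in SEC. Of the 20 genes, 14 were above 1 CPM in all 4 libraries and 5 below it in all 4. Of the 9 calls, those of FIL, SCR and LOG3 held without each LEM or LEL library in turn.

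The largest change among the named genes was that of FIL. FIL (Bradi3g30410.1), which in Arabidopsis specifies the abaxial side of lateral organs, was at 5.90 and 5.76 log2 CPM in the LEM libraries and at 3.57 and 3.69 in the LEL libraries. The change of -2.20 log2 (SE 0.39, 95% interval -3.03 to -1.37, adjusted p = 0.000395 by limma) was a drop from 57.0 to 12.4 CPM and lies far outside the spread of the replicates. KNAT1 (Bradi1g10047.2), a class I KNOX homeobox gene active in shoot meristems, was at 4.88 and 4.63 at LEM and at 3.74 and 3.59 at LEL. It fell by 1.09 log2 (SE 0.29, adjusted p = 0.00712 by limma), and without LEM replicate 1 the fall of 0.96 just missed the threshold (adjusted p = 0.0577 by limma).

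CUC2 (Bradi1g41712.2), a NAC transcription factor that in Arabidopsis marks the boundaries of organs, was at 2.36 and 2.17 at LEM and at 1.66 and 1.55 at LEL. Its change of -0.66 log2 (SE 0.23, adjusted p = 0.0334 by limma) was small beside those of FIL and KNAT1, and the call was lost without any of the 4 libraries (adjusted p = 0.0599 to 0.159 by limma). STM (Bradi1g57607.1), the KNOX gene that in Arabidopsis keeps the shoot meristem undifferentiated, was at 2.95 and 2.70 at LEM and at 2.45 and 2.01 at LEL. The libraries did not overlap, but the change of -0.60 log2 had a 95% interval of -1.55 to 0.35 and did not pass the test (adjusted p = 0.322 by limma).

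The remaining markers of the shoot meristem were at or near the detection limit. WUS (Bradi5g25113.1), the homeobox gene that in Arabidopsis maintains shoot stem cells, was listed at its floor of -2.98 log2 CPM in LEM replicate 1 and both LEL libraries and at -2.49 in LEM replicate 2, so no fold is given. ZPR3 (Bradi4g42250.1), a small leucine zipper protein, was at -2.43 and -2.08 at LEM and at -1.78 and -1.56 at LEL, below 1 CPM in all 4 libraries (change 0.59, adjusted p = 0.282 by limma). Of the 6 shoot meristem markers, 3 fell, 0 rose and 3 did not pass the test.

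The ground tissue markers fell where they were expressed. SCR (Bradi4g44093.1), a GRAS transcription factor of the endodermis and quiescent center in Arabidopsis, was at 5.26 and 5.09 log2 CPM in the LEM libraries and at 4.02 and 4.0 in the LEL libraries. With -1.17 log2 (SE 0.13, 95% interval -1.45 to -0.89, adjusted p = 5.93e-06 by limma) it had the smallest adjusted p of the 20 genes, and it went from 36.1 to 16.1 CPM. MGP (Bradi2g08460.1), a zinc finger protein that acts with SCR and SHR in Arabidopsis, was at 3.08 and 2.67 at LEM and at 2.32 and 1.97 at LEL. Its change of -0.73 log2 (SE 0.27) lay at the threshold (adjusted p = 0.0493 by limma), and the call was lost without LEM replicate 1 (adjusted p = 0.269), LEL replicate 1 (0.0569) or LEL replicate 2 (0.256). JKD (Bradi3g26910.2), a zinc finger protein of the same family, was listed at its floor of -2.71 in LEM replicate 1 and both LEL libraries and at -2.22 in LEM replicate 2.

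**Figure D2:**
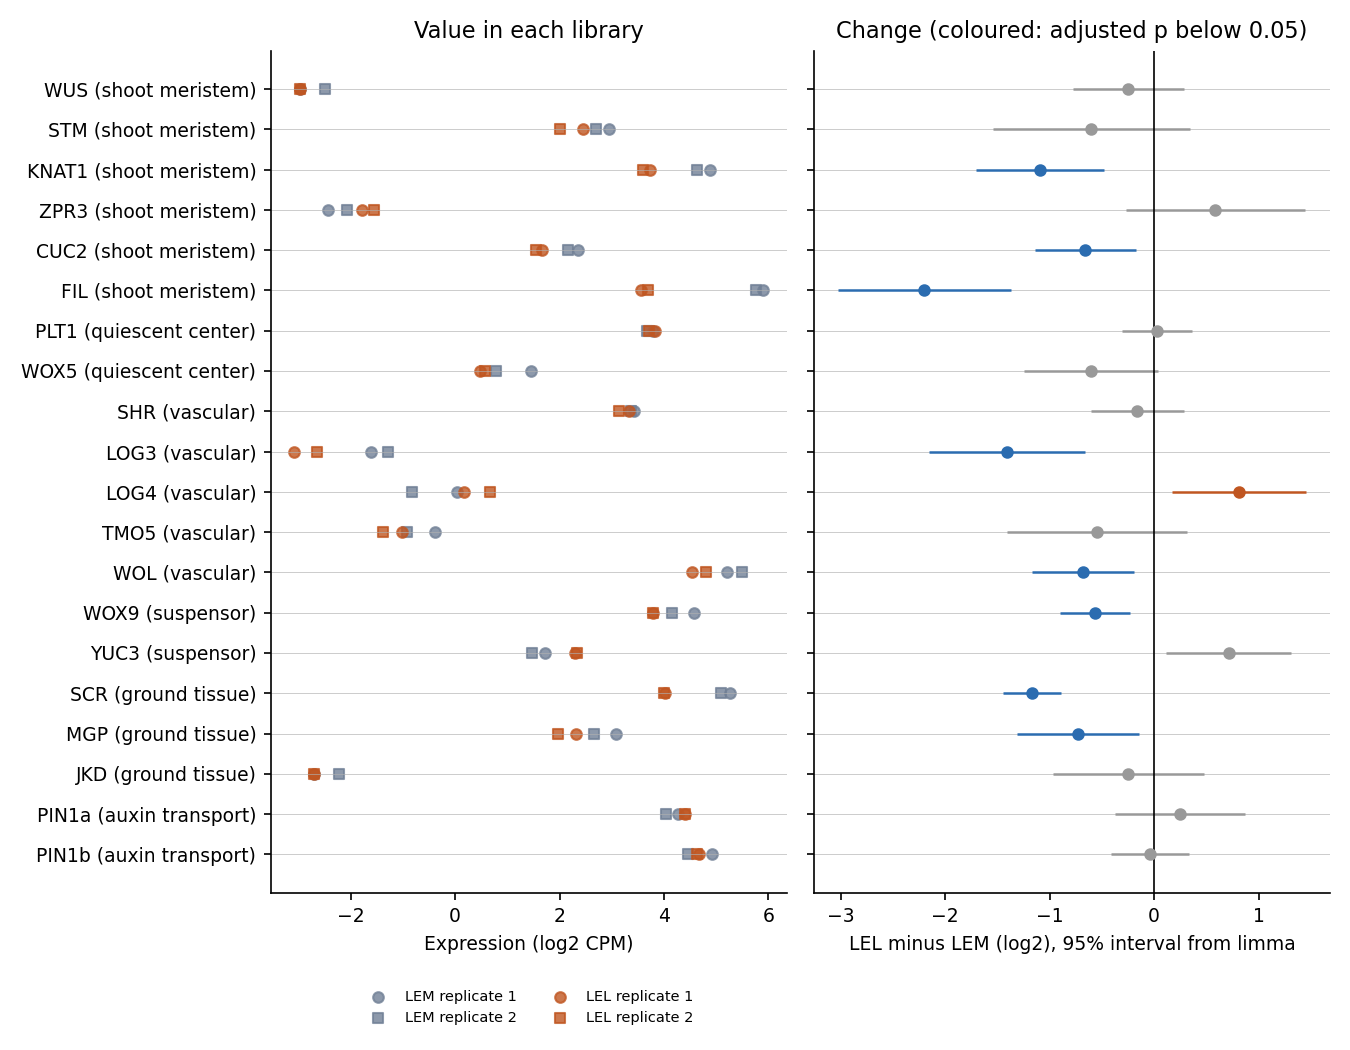
Left, expression of the 20 named genes in each LEM (grey) and LEL (orange) library (log2 CPM, circles replicate 1, squares replicate 2). Right, the LEL minus LEM change with its 95% interval from limma, in blue or orange where the adjusted p is below 0.05: 8 genes lie to the left of 0 and 1, LOG4, to the right, while the fitted changes of WUS and JKD rest on values at the floor.

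Among the vascular genes the directions differed. WOL (Bradi3g59820.1), a cytokinin receptor, was at 5.20 and 5.50 log2 CPM at LEM and at 4.54 and 4.81 at LEL, a change of -0.68 log2 (SE 0.23, adjusted p = 0.0301 by limma). The call was lost without LEM replicate 2 (-0.53, adjusted p = 0.177) or LEL replicate 1 (-0.54, adjusted p = 0.171). LOG3 and LOG4, which encode enzymes that release active cytokinin, moved in opposite directions, LOG3 below 1 CPM and LOG4 near it.

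LOG3 (Bradi2g14470.1) was at -1.62 and -1.29 at LEM and at -3.08 and -2.65 at LEL, a change of -1.41 log2 (SE 0.35, adjusted p = 0.00508 by limma) between values that are all below 1 CPM. With the CPM raised by 1 before the logarithm it was -0.26 (adjusted p = 0.16 by limma). In EEN and LEN the means of LOG3 were far higher, 5.38 ± 0.13 and 5.59 ± 0.1 log2 CPM (SD, n = 2). The part of adhering endosperm in its LEM and LEL values was not tested. LOG4 (Bradi2g42190.1) was at 0.03 and -0.82 at LEM and at 0.17 and 0.66 at LEL, the only named gene that rose, by 0.81 log2 (SE 0.30, adjusted p = 0.0463 by limma). That call was lost in 10 of 16 alternatives (adjusted p = 0.010 to 0.407 by limma), among them those without LEM replicate 2 (0.38, adjusted p = 0.407) or LEL replicate 2 (0.57, adjusted p = 0.281). SHR (Bradi1g23060.1), a GRAS factor made in the stele in Arabidopsis, was at 3.42 and 3.37 at LEM and at 3.34 and 3.13 at LEL, a change of -0.16 with a 95% interval of -0.61 to 0.29. TMO5 (Bradi3g38360.1), a bHLH factor of early vascular divisions in Arabidopsis, was at -0.38 and -0.93 at LEM and at -1.01 and -1.39 at LEL (change -0.55, adjusted p = 0.32 by limma).

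Of the suspensor markers, WOX9 (Bradi2g16444.1), a homeobox gene of the basal embryo lineage in Arabidopsis, was at 4.57 and 4.16 log2 CPM in the LEM libraries and at 3.80 in both LEL libraries. It fell by 0.57 log2 (SE 0.16, adjusted p = 0.0102 by limma), but by 0.36 without LEM replicate 1 (adjusted p = 0.138). YUC3 (Bradi5g01327.2), an enzyme of auxin synthesis, was at 1.73 and 1.47 at LEM and at 2.30 and 2.33 at LEL. Both LEL libraries were above both LEM libraries, yet the change of 0.71 log2 (95% interval 0.11 to 1.31) did not pass the test over all genes (adjusted p = 0.0589 by limma), and it did in 3 of 16 alternatives, which were the fit of the embryo libraries alone (adjusted p = 0.040), no variance trend (0.0474) and log2(CPM + 1) (0.0101).

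The genes of the quiescent center and of auxin transport did not pass the test. PLT1 (Bradi5g14960.1), an AP2 factor of the root stem cell niche in Arabidopsis, was at 3.79 and 3.68 log2 CPM at LEM and at 3.83 and 3.71 at LEL. Its change of 0.03 log2 had a 95% interval of -0.30 to 0.37, so a change of 1 log2 lies outside it. WOX5 (Bradi2g55270.1), the homeobox gene of the quiescent center, was at 1.46 and 0.79 at LEM and at 0.47 and 0.57 at LEL (change -0.60, 95% interval -1.24 to 0.03, adjusted p = 0.13 by limma). The change was -0.27 without LEM replicate 1 and -0.94 without LEM replicate 2 (adjusted p = 0.051 by limma), and it passed the test with quantile normalization (-0.81, adjusted p = 0.0233 by limma). PIN1a (Bradi1g45020.1) and PIN1b (Bradi3g59520.1) encode carriers that move auxin out of cells. PIN1a was at 4.27 and 4.04 at LEM and at 4.40 and 4.41 at LEL, with an interval of the change of -0.38 to 0.87. PIN1b was at 4.92 and 4.47 at LEM and at 4.68 and 4.64 at LEL, with an interval of -0.41 to 0.33, and its libraries overlapped.

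The neighbouring steps share the LEM or the LEL libraries with this step and are therefore no separate evidence, so their values are only set side by side. From LEE to LEM 13 of the 20 genes fell and 0 rose, where 26.9% of all tested genes fell and 25% rose. From LEL to MAT 10 fell and 0 rose, against 27.9% and 24.7%. FIL changed by -1.86 log2, then by -2.20 and by -1.38 over these 3 steps in order. For SCR the 3 changes were -0.41, -1.17 and -1.74, and for WOX9 they were -2.89, -0.57 and -2.67. LOG4 had a change of -3.04 from LEE to LEM before the rise of 0.81, and of 0.03 from LEL to MAT. The skew in size also differed between the steps: from LEE to LEM 551 genes (2.41%) were at least 2 log2 higher and 720 (3.14%) lower, and from LEL to MAT 344 (1.5%) were higher and 1284 (5.61%) lower.

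The genes that changed most in this step were followed through the other groups. The 694 genes that rose by at least 2 log2 had medians of -0.60 to -1.42 log2 CPM from TCQ to LEE, of -0.48 at LEM and 2.74 at LEL, and they reached 3.60 at MAT. Of the 7 embryo stages, MAT had the highest mean for 430 of them (62.0%, against 28.0% of all tested genes), LEL for 179 (25.8%, against 8.46%) and TCQ for 70 (10.1%, against 21.0%). Outside the embryo their median was 3.08 in LEN (quartiles -1.51 and 5.53), -0.44 in EEN and -0.17 in SEC. LEN was the highest of all 10 groups for 167 of them (24.1%, against 13.6% of all tested genes). Called higher in LEN than in EEN were 436 of them (62.8%, against 31.3% of all tested genes). The 155 genes that fell by at least 2 log2 rose from a median of 2.58 at TCQ to 4.10 at TRA and were at 2.82 at LEM, 0.40 at LEL and -1.51 at MAT. Their highest stage was spread over PEM (23.9%, against 16.1% of all tested genes), LEE (23.2%, against 8.03%), LEM (18.1%, against 10.5%), TCQ (17.4%, against 21.0%) and TRA (16.8%, against 7.85%), with 1 gene highest at MAT. Their medians were 0.43 in EEN, -0.31 in LEN and 1.18 in SEC. As a set, the large rises had medians below 0 in each stage before LEL, and the large falls had medians above 2 there. The LEM and LEL levels chose both sets and are given as a description.

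**Figure D3:**
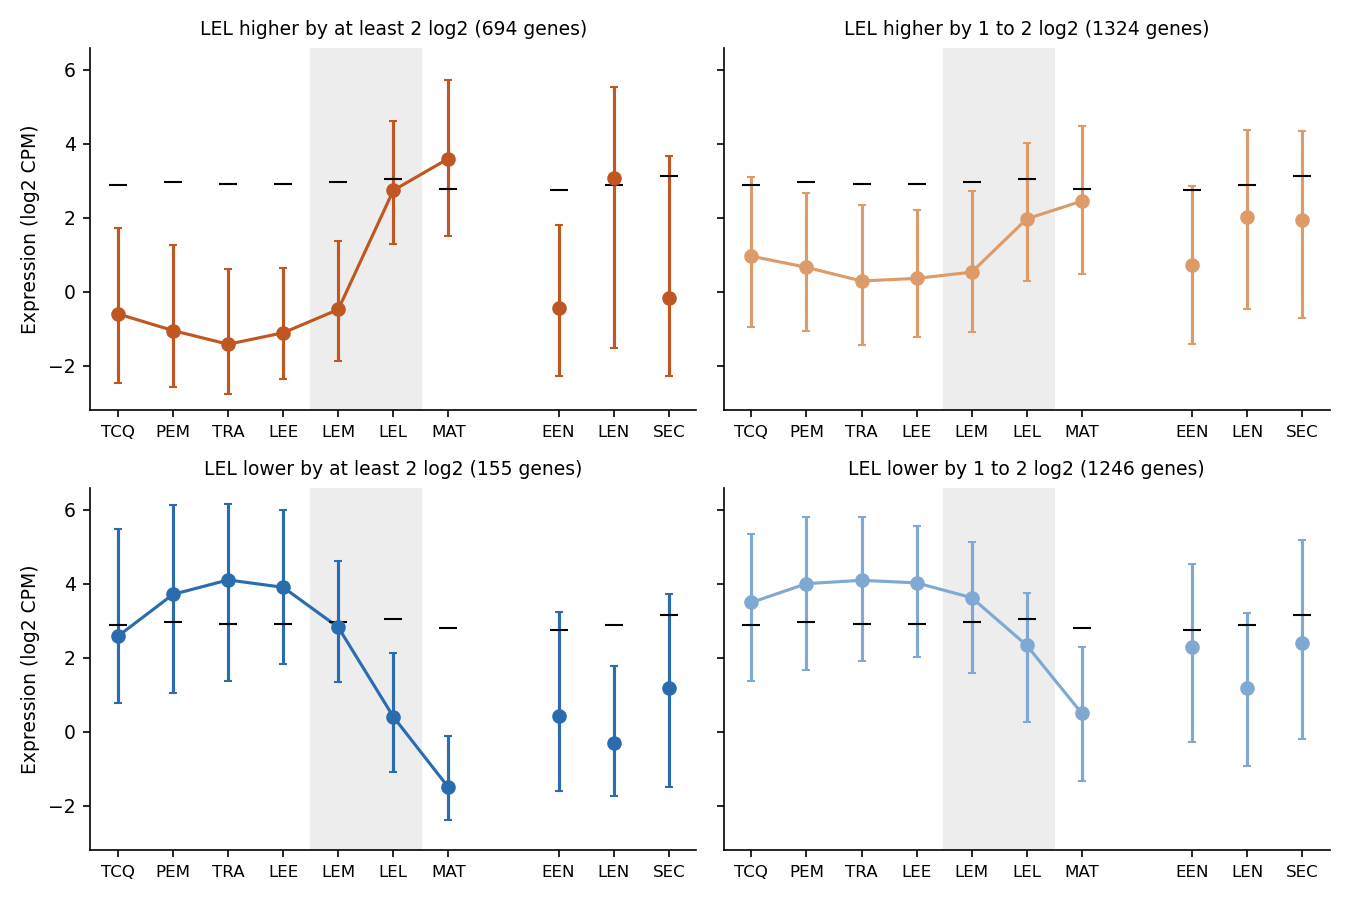
Median expression (points, log2 CPM, with the quartiles as bars) over the 10 groups for genes called higher or lower at LEL, by size of the change. Black dashes are the medians of all 22902 tested genes and the shaded band holds the stages that chose the genes. The genes that rose by at least 2 log2 go from -0.48 at LEM to 2.74 at LEL and 3.60 at MAT, and those that fell by as much from 2.82 to 0.40 and -1.51.

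MAT and LEE share no library with LEM or LEL, so the difference between these stages is a separate measure of the same genes. Between MAT and LEE 17072 of the tested genes differed (74.5%, adjusted p below 0.05 by limma), 35.1% with the higher and 39.5% with the lower level at MAT. Of the 4203 genes that rose from LEM to LEL, 82.6% were higher at MAT than at LEE and 5.76% were lower. Of the 4292 that fell, 83.8% were lower and 5.22% higher. Genes that went against the longer trend were therefore a minority on both sides, 242 that rose in the step but were lower at MAT than at LEE, and 224 that fell but were higher. Across the 22902 genes, the LEL minus LEM and the MAT minus LEE differences had a Pearson correlation of 0.73, which is across genes that are not independent replicates. Of the 20 named genes, 16 were lower and 0 higher at MAT than at LEE, among them LOG4, which rose in the step (-2.20 log2, SE 0.30, adjusted p = 7.8e-06 by limma).

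When each library was placed on the direction from the LEE mean (set at 0) to the MAT mean (set at 1) over all tested genes, the LEM libraries lay at 0.296 and 0.345 and the LEL libraries at 0.609 and 0.654. The step covered 0.311 of the way on average, more than the gap between the replicates of either stage. With 2 libraries against 2, an exact permutation test cannot go below p = 0.333, so none is given. The TCQ, PEM and TRA libraries lay between -0.061 and 0.0455. On the same direction EEN lay at 0.301 and 0.349, LEN at 0.651 and 0.671 and SEC at 0.324 and 0.341. A library that is unlike both ends to the same degree also falls between them, so a position alone does not show likeness to an embryo stage.

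**Figure D4:**
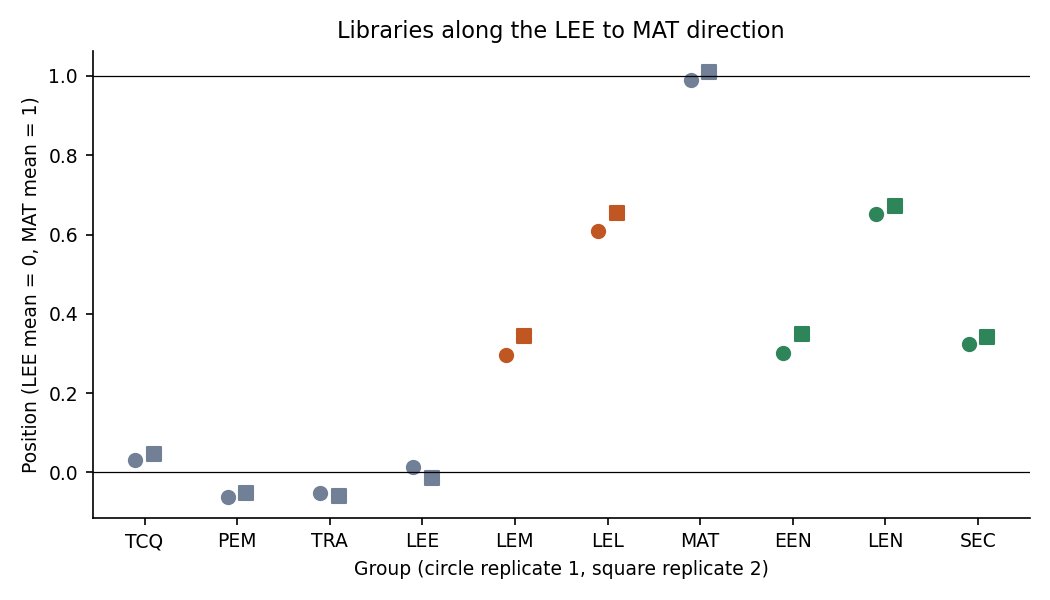
Position of each of the 20 libraries on the direction from the LEE mean (0) to the MAT mean (1) over 22902 genes, without units. The LEM libraries (0.296 and 0.345) and the LEL libraries (0.609 and 0.654), in orange, lie between them, and the late endosperm libraries (green) are at 0.651 and 0.671. A position between the ends does not by itself show likeness to an embryo stage.

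The endosperm was sampled at an early and a late time as well, and shares no library with the step. Between LEN and EEN 14230 genes differed (62.1%), 31.3% with the higher and 30.9% with the lower level in LEN. Of the genes that rose from LEM to LEL 58.4% were higher in LEN than in EEN and 12.6% lower, and of those that fell 56.3% were lower and 16.0% higher. Across genes the embryo and endosperm differences had a Pearson correlation of 0.40. The test of the difference between both changes called 10808 genes (47.2%), of which 5467 (23.9%) had the more positive change in the embryo and 5341 (23.3%) in the endosperm. Opposite changes that each passed the test were found for 531 genes that rose in the embryo and 687 that fell.

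Of the 20 named genes, 11 had a difference between the tissues that passed the test (55.0%), 1 above 0 and 10 below it, against 47.2% of all tested genes. FIL, SCR, KNAT1, LOG3 and MGP fell in the embryo and had changes in the endosperm that did not pass the test. The difference between tissues passed it in each (adjusted p = 1.81e-05 for SCR to 0.0138 for LOG3 by limma). FIL, KNAT1 and MGP were below 0 log2 CPM on average in both EEN and LEN, where a fall could hardly be seen. SCR (2.30 and 2.53) and LOG3 (5.38 and 5.59) were above it in both. CUC2 also fell in the embryo, but its difference between the tissues was -0.36 log2 and did not pass the test (adjusted p = 0.385 by limma). WOX9 fell by 0.57 log2 in the embryo and by 4.65 in the endosperm, from 5.15 ± 0.01 to 0.50 ± 0.25 log2 CPM (SD, n = 2), a difference of 4.09 log2 (SE 0.22). PIN1a had a change of 0.25 in the embryo and rose by 4.45 log2 in the endosperm, from -1.19 ± 0.98 to 3.26 ± 0.02.

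Genes of the surrounding tissues were followed because they can adhere to a dissected embryo or be expressed by it. Lists were made of genes at 6 log2 CPM or more in a tissue and at least 6 log2 above the mean of TCQ, PEM, TRA, LEE and MAT, without the LEM and LEL libraries. The late endosperm list held 180 genes, and its summed CPM was 12400 and 6970 in the LEM libraries and 38000 and 26800 in the LEL libraries, which is 8.59% and 4.82%, and 26.3% and 18.6%, of its mean sum in LEN. Of these genes 88 were called higher (48.9%, against 18.1% of the others) and 5 lower (2.78%, against 18.9%), with 74 higher by at least 2 log2. The MAT libraries held 33100 and 28800 CPM of the list and the LEE libraries 473 and 470.

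The increase was uneven within the list. At LEL 52 of the 180 genes were at 10% or more of their LEN level, 10 of them above it, while 107 were under 1% (at LEM 16 and 134). In LEL replicates 1 and 2, 97 and 92 of these genes were at or below 1 CPM. The 10 most abundant genes made up 83.7% and 82.6% of the summed CPM. The part of adhering endosperm in the rises was not tested. Without the list, 4115 genes were higher (18.1% of the others), 620 of them by at least 2 log2.

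The early endosperm list (90 genes) summed to 1230 and 1020 CPM at LEM and 3880 and 2600 at LEL, of which 1 gene held 3160 and 1950 CPM in the LEL libraries. Of this list 7 genes (7.78%) were called higher and 5 (5.56%) lower, against 18.4% and 18.8% of the genes outside it. The seed coat list (252 genes) summed to 3660 and 2750 CPM at LEM and 2300 and 1920 at LEL, 0.927% to 1.77% of its level in SEC, with 56 genes higher (22.2%) and 60 lower (23.8%), against 18.3% and 18.7% of the genes outside the list.

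**Figure D5:**
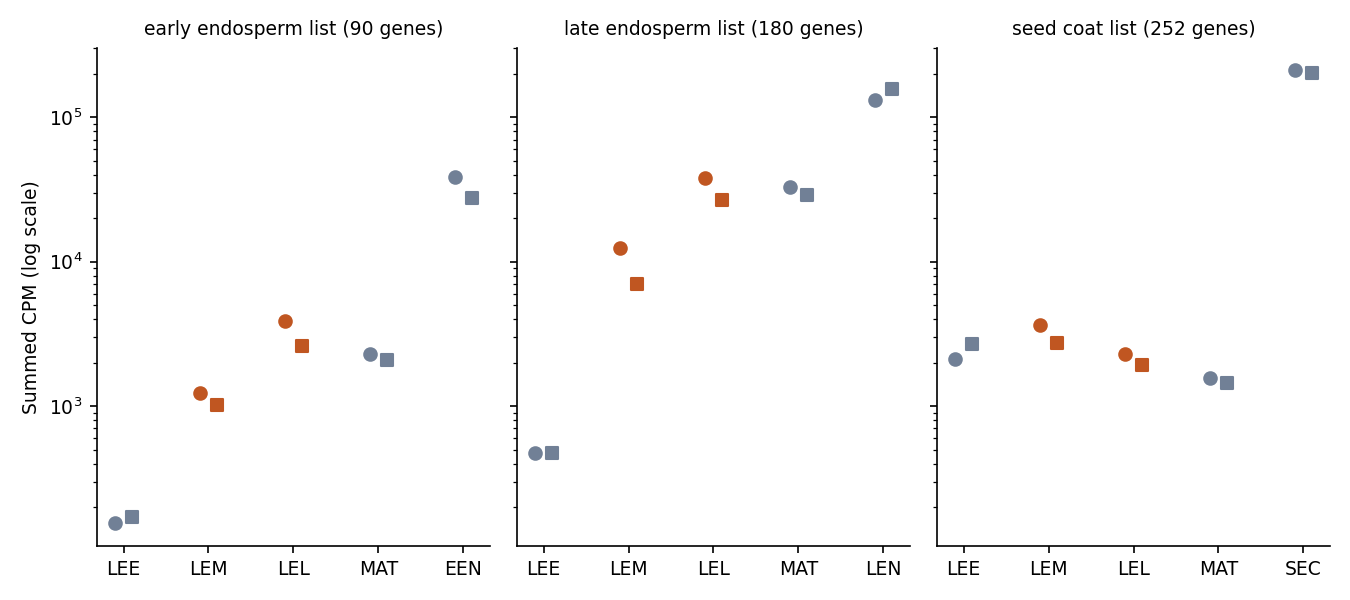
Summed CPM (y axis, log scale) of the genes of the early endosperm, late endosperm and seed coat lists in each LEE, LEM, LEL and MAT library and in the tissue itself (circles replicate 1, squares replicate 2; LEM and LEL in orange). The late endosperm list rises from 6970 and 12400 at LEM to 26800 and 38000 at LEL, and the seed coat list has 1920 to 3660 in the same 4 libraries.

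On the linear scale a few genes took up much of the gain. Summed over genes with a higher mean CPM at LEL, the gain was 121192 CPM, of which 10 genes held 20.3% and 100 genes 43.8%. The loss of 143351 CPM was spread more widely, with 7.31% in 10 genes and 24.8% in 100. Of the 10 genes with the largest gain 9 were called higher, with changes of 0.84 to 4.81 log2 over the 10. Of the 10 with the largest loss 8 were called lower, with changes from -0.42 to -3.05. The 10 most abundant genes took 4.65% and 3.70% of the summed CPM of the LEM libraries and 6.82% and 5.21% in the LEL libraries.

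The changes were spread over the genome. On the 5 chromosomes, read from the identifiers, 17.5% to 19.6% of the tested genes rose and 16.6% to 19.6% fell. In the order of the identifiers, the Pearson correlation of the changes was 0.09 between adjacent genes, 0.04 at 2 places and 0.02 at 5 places, and 0.01 at 100 places. After a gene that rose by at least 1 log2, the next gene did so in 13.6% of cases, against 8.81% of all genes, and for falls of that size the shares were 9.21% and 6.12%. Copies of a gene that lie next to each other can share reads, and their part in these values was not tested.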

How the data were processed

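Expression was measured by RNA-seq in 20 libraries of 10 groups, 2 per group. mRNA was amplified as antisense RNA, 4 libraries were sequenced per lane, and Salmon 0.13.0 counted the reads on representative JGI 3.1 gene models of Bd21. The authors deposited log2 CPM values with their own normalization. Log2 CPM cannot enter a count test. The sources used here give no library depth, so no counting interval is printed.

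The deposited log2 values were fitted in R 4.3.3 with limma 3.58.1, with a mean per group over all 20 libraries and a variance trend (10 residual and 4.82 prior degrees of freedom). The 22902 genes that exceeded 0 log2 CPM in at least 2 libraries were tested, p-values were adjusted by Benjamini-Hochberg over all of them within a contrast, and genes were called at 0.05. Printed adjusted p-values are from this fit or the alternative named beside them. The floor of a gene is its lowest value where at least 2 libraries shared it within 1e-06.

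The genes, lists and tests were chosen with earlier results of these data known. The 20 named genes are those for which the study prints a name beside an identifier, and the identifiers of LOG3 and TMO5 in particular were read from small print. A further 2 identifiers per direction were named, those of the called genes with the largest change whose LEM and LEL libraries do not overlap and whose higher group reaches 5 log2 CPM. A reference table of 31335 genes matched 0 identifiers, so the lists by description were not run and no sequence is shown.

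On simulated data for LEL against LEM with 200 changed genes among 22902, 77% of changes of 1 log2 were recovered with 8 false calls, and 96.5% of changes of 2 log2 with 6. The changed genes were drawn from those with a mean above 2 log2 CPM, the noise was independent and normal, and all other genes were unchanged. The real step differs in each of these, so the values do not give its recovery or false calls. Alternatives were other filters, libraries, variance models, scalings, a pseudocount, a replicate block over all libraries or, chosen after the data were seen, over the 12 libraries of LEM, LEL, MAT, EEN, LEN and SEC, and leaving out each library. Embryos of E180 and E400 were not analysed here.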

Additional observations from a re-analysis of the deposited data

Results flagged for a closer look

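The change from LEM to LEL differed from the change from EEN to LEN in 10808 genes, by limma's test of the difference itself at an adjusted p below 0.05. Among the named genes the embryo change was the lower, in log2, by the following differences (embryo minus endosperm). In the shoot meristem group it was -2.22 for STM, which rose by 1.62 in the endosperm, -2.20 for FIL and -1.47 for KNAT1. In the vascular group it was -2.21 for TMO5, -1.73 for WOL, -1.62 for LOG3 and -1.06 for SHR, and TMO5, WOL and SHR rose in the endosperm by 1.66, 1.05 and 0.90. In the ground tissue it was -1.40 for SCR and -1.28 for MGP. PIN1a, with a rise of 4.45 in the endosperm, had the difference farthest below 0 of the 20 genes, -4.20. WOX9 was the only named gene with a difference above 0 that passed the test, 4.09. Of the other identifiers, Bradi1g62180.1 rose more in the embryo by 1.85, while Bradi3g55100.1 and Bradi4g02480.1 had differences of -3.46 and -3.84 and were below 0 log2 CPM on average in both endosperm groups. Several of these genes are below 1 CPM in EEN or LEN, where a fitted difference depends on the floor.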

How the results depend on the processing

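The number of genes changed from LEM to LEL was 5887 to 9049 under the other filters, library choices, variance models, scalings and pseudocount, and 6528 to 7038 without a LEM or LEL library, within 1.5 times 8495 in each. The count of 5887 came from only the LEM and LEL libraries, and that of 9049 from only the embryo libraries. Requiring 1 log2 as well in the fit of all 20 libraries left 3419 genes, 2018 higher and 1401 lower. The counts by direction without a library were 3229 to 3458 higher and 3299 to 3584 lower. Of the called genes 49.5% were higher, against 43.5% with library medians set equal and 46.9% with quantile normalization, which moved the median change by -0.06 and -0.04, and 49.1% to 50.7% without a library. Counts of at least 2 log2 were 325 higher and 55 lower with log2(CPM + 1), 154 and 34 among genes reaching 5 log2 CPM (an alternative added after the data were seen), 606 and 223 with quantile normalization, and 674 to 768 and 131 to 227 without a library.

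Of the named genes 0 were higher with only the LEM and LEL libraries, with medians set equal, with quantile normalization or with the 12 late libraries of LEM, LEL, MAT, EEN, LEN and SEC, and 5 were lower with only the LEM and LEL libraries. Without a library 4 to 6 were lower and 0 to 1 higher. Of 382 refits of single genes 337 kept direction and side of the threshold, 33 lost the call and 5 gained it, and 7 changed sign or went to 0, none of a called gene: PLT1 was at -0.024 with medians equal and PIN1b at 0.020 with quantile normalization, and without a library PLT1 ranged from -0.027 to 0.092, PIN1b from -0.26 to 0.18, and WUS and JKD from -0.49 to 0. The counts for LEE to MAT (15606 to 15991 without a library), EEN to LEN (12671 to 13324) and the embryo against endosperm difference (9604 to 10440) stayed within 1.5 times.

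The labels do not say whether replicate numbers pair samples. Replicate differences correlated at 0.16 to 0.55 in all 15 pairs among LEM, LEL, MAT, EEN, LEN and SEC (0.55 between LEM and LEL). In the other 30 pairs they correlated at -0.13 to 0.09. Pairing and other traits shared by libraries of the same replicate number cannot be told apart here. With the replicate block over all libraries 8719 genes changed, 8404 of them the same genes, and the named counts were 8 lower and 1 higher. With the block in the 12 late libraries (added after the data were seen) 8266 changed, 7785 of them the same genes, and 6 named genes were lower and 0 higher. CUC2, MGP and LOG4 lost the call. Without the block the same 12 libraries gave 7098 changed genes, with 4 named genes lower and 0 higher, and WOL and WOX9 lost the call too. The lists by description were not run. With 2 libraries a stage and unknown depth, changes of genes near the floor are least certain.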
